A study of Rattus norvegicus with 6 samples.

Results

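Crypt stem cell and Wnt target genes were followed in the ileum of obese rats after an upper gut bypass. They were taken as a roster of 10 genes, and 9 of them were measured among the 14506 genes tested: Lgr5, Olfm4, Ascl2, Smoc2, Axin2, Prom1, Ephb2, Ephb3 and Rnf43. Sox9 was not analysed here, and each measured gene had 1 row of the array carrying its symbol alone. The stem cell genes among them mark the base of the crypt by knowledge gained mainly in the mouse, so the group is named for its genes and not for a sorted cell type.

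The samples were 3 rats with duodenum-jejunum bypass (DJB), in which food is led past the duodenum and upper jejunum, and 3 rats with sham surgery, in which the cut gut was rejoined in its normal course. All 6 were Zucker fa/fa rats, whose leptin receptor is defective, so the sham rats were obese animals too and no lean or unoperated rats were compared. Surgery was done at 20 weeks of age and the ileum was frozen after 14 days, with 1 RNA sample (integrity number above 9.0) and 1 Affymetrix whole-transcript array per rat. Values are log2 levels after RMA normalisation, so 1 unit is a doubling, and levels of different genes are not compared because each gene has its own probes.

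The lining of the small intestine is renewed from stem cells at the bottom of the crypts. Wnt proteins from Paneth cells and from the stroma keep these cells dividing: Wnt binds Frizzled and LRP receptors, beta-catenin is spared from destruction, and with TCF/LEF factors it switches on target genes. R-spondins strengthen the signal by binding LGR receptors, which holds back RNF43 and ZNRF3, the ubiquitin ligases that strip Frizzled from the cell surface. In the ileum the targets include feedback inhibitors of the pathway and the Eph receptors that hold cells in their place along the crypt.

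The tissue carried ileal transcripts on every array: Fabp6, the ileal bile acid binding protein, lay between 13.44 and 13.97 on the 6 arrays. These ileal markers were not level between the groups. Fabp6 had 13.81, 13.85 and 13.97 on DJB 1 to 3, against 13.44, 13.61 and 13.67 on sham 1 to 3, and its difference of 0.30 ± 0.10 (SE) did not pass the limma test described next (adjusted p = 0.23). The bile acid transporter gene Slc10a2 had 11.91, 12.46 and 12.02 on DJB 1 to 3, against 9.90, 10.54 and 10.75 on sham 1 to 3. It was 3.32-fold higher after DJB (limma adjusted p = 0.0106, and 0.0511 with an intensity trend and robust moderation). The part of these markers in the results was not tested.

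The 6 array medians lay between 6.08 and 6.19, the highest on DJB 1, and all 9 genes had a mean above 6.11, the median of all rows. Differences are DJB minus sham with the standard error (SE) of a limma fit over all genes tested. A gene counts as changed where its Benjamini-Hochberg adjusted p over those genes is under 0.05, which 0.772% of them met. Because the RNA is from bulk tissue, fewer crypt cells and less RNA per crypt cell cannot be told apart. The 3 arrays per group limit the precision, and an exact two-sided permutation test of 3 against 3 arrays gives no p under 0.1.

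None of the 9 genes passed: the limma count was 0 of 9 after adjustment (adjusted p between 0.122 and 0.988), and 2 of 9, Lgr5 and Prom1, had an unadjusted p under 0.05, as did 14.3% of all genes. The differences of those 2 had opposite signs. Lgr5 was 1.55-fold lower and Prom1 1.30-fold higher after DJB, and in both the 3 DJB values lay apart from the 3 sham values. Groups without overlap were found in 2 of 9 genes, against 21.1% of all genes: in 1 with DJB below sham (6.56% of all genes) and in 1 with DJB above sham (14.5% of all genes). The other 7 genes, among them the direct Wnt target Axin2 and the abundant stem cell gene Olfm4, differed by between -0.19 and -0.01, and their groups overlapped. Over the 9 genes the median difference was -0.03, where the median of all genes tested was 0.05, and 8 of 9 were lower after DJB (88.9%) where 38.3% of all genes were.

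**Figure D1:**
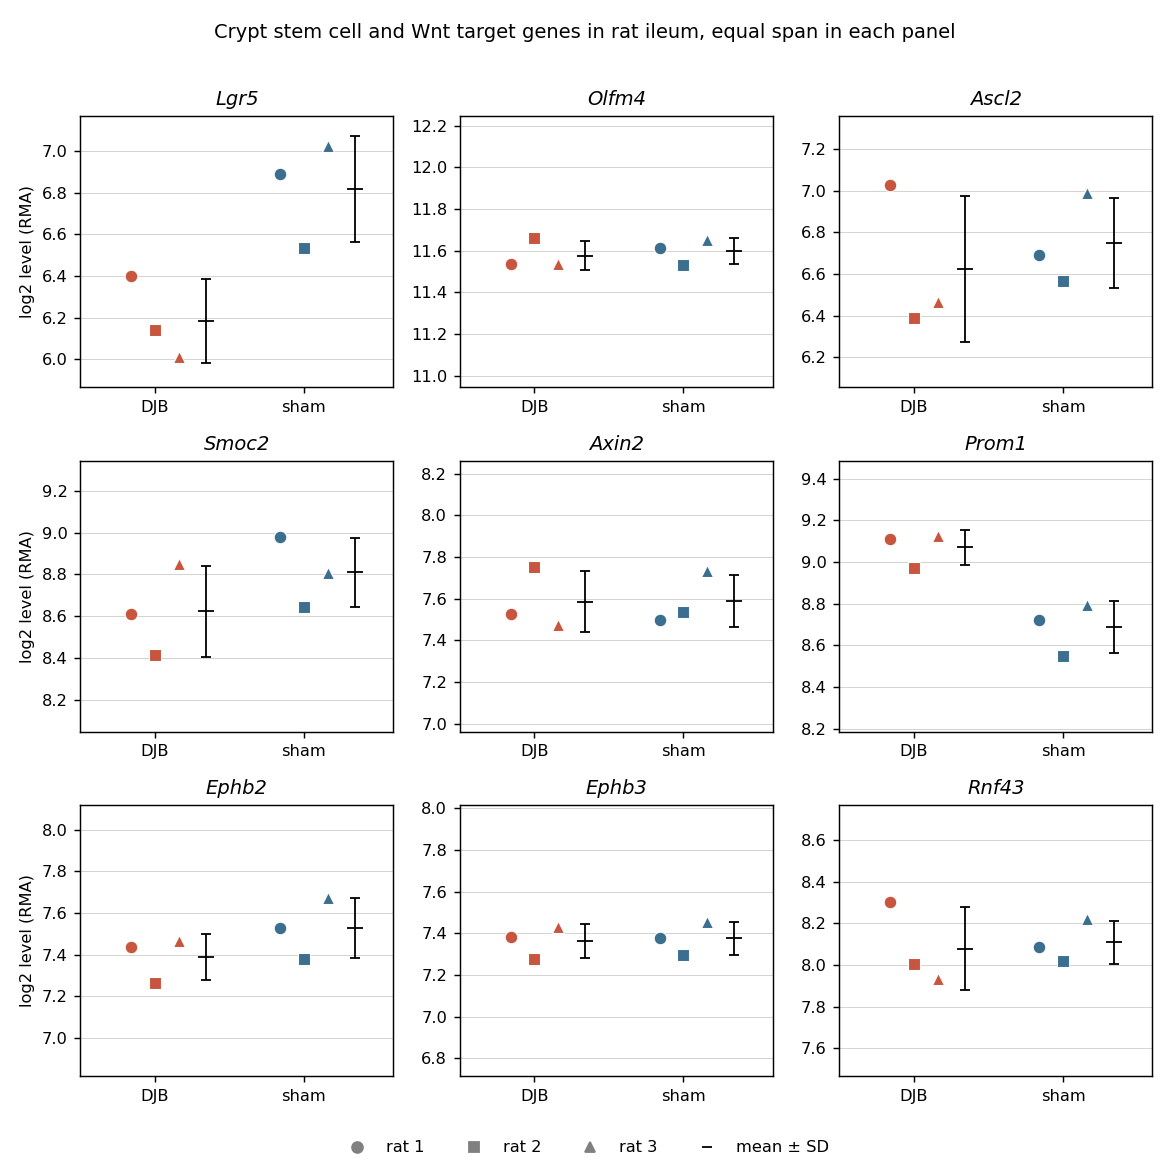
Log2 level of each of the 9 genes on every array (vertical axis, RMA values; each panel spans the same number of log2 units), with DJB rats in red on the left and sham rats in blue on the right, a symbol per rat and the group mean with its SD in black. Lgr5 is lower on all 3 DJB arrays than on any sham array, Prom1 is higher on all 3, and the groups overlap in the other 7 panels.

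Lgr5 encodes the receptor for R-spondins that marks the dividing stem cells between the Paneth cells. Its level was 6.40, 6.14 and 6.01 on DJB 1 to 3, against 6.89, 6.53 and 7.03 on sham 1 to 3. The highest DJB value lay 0.13 below the lowest sham value, that of sham 2, so the groups stood close together at their edges. Lgr5 averaged 6.18 ± 0.20 after DJB and 6.82 ± 0.25 in sham (SD, n = 3 each), a difference of -0.63 ± 0.15 (SE) with a 95% interval of -0.97 to -0.29. The limma adjusted p was 0.122, so the difference did not pass, and the exact two-sided permutation test gave p = 0.1. In size it exceeded 98.6% of the differences of all genes. The DJB mean was close to the median of all rows, and RMA values of dim rows understate a fold.

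The Lgr5 difference kept its sign without any 1 of the 6 arrays, ranging from -0.77 without sham 2 to -0.53 without sham 3, with adjusted p between 0.0956 and 0.318. It passed under 1 of the other settings, with an intensity trend and robust moderation of the variances (adjusted p = 0.0483), where 313 of all genes passed in place of 112.

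Olfm4 encodes olfactomedin 4, a secreted glycoprotein that in human crypts is a prominent stem cell marker. It had 11.54, 11.66 and 11.54 on DJB 1 to 3 and 11.61, 11.53 and 11.65 on sham 1 to 3. The 6 values interleaved within a narrow span. Its difference was -0.02 ± 0.09 (SE), with a 95% interval of -0.23 to 0.19. The interval of Lgr5 ended close to it, at -0.29.

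Ascl2, the transcription factor that in mouse crypts maintains the stem cell programme, was the most scattered gene of the group after DJB. It had 7.03, 6.39 and 6.46 on DJB 1 to 3 and 6.69, 6.57 and 6.99 on sham 1 to 3. DJB 1 was the highest of all 6 arrays and DJB 2 the lowest. The difference of -0.12 ± 0.18 (SE) was within the SD of 0.35 of the DJB arrays, and it was -0.32 without DJB 1.

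Smoc2 encodes a secreted calcium-binding matrix protein that marks Lgr5-positive cells in the mouse and is also made by stroma. It had 8.61, 8.41 and 8.85 on DJB 1 to 3 and 8.98, 8.64 and 8.81 on sham 1 to 3. The highest value was on a sham array and the lowest on a DJB array, with overlap between. The difference was -0.19 ± 0.14 (SE) (limma adjusted p = 0.575).

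Prom1 encodes prominin 1 (CD133), a membrane glycoprotein of stem and transit-amplifying cells of the crypt. Its level was 9.11, 8.97 and 9.12 on DJB 1 to 3, against 8.72, 8.55 and 8.79 on sham 1 to 3. All DJB values were above all sham values, with 0.18 between the nearest ones, DJB 2 and sham 3. It averaged 9.07 ± 0.08 after DJB and 8.69 ± 0.13 in sham (SD, n = 3 each), a difference of 0.38 ± 0.10 (SE) with a 95% interval of 0.15 to 0.61. That did not pass (limma adjusted p = 0.155; exact permutation p = 0.1), and 94.4% of all genes had a difference of that size or smaller. Leaving out any 1 array kept it between 0.31 and 0.43, with adjusted p between 0.219 and 0.324.

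**Figure D2:**
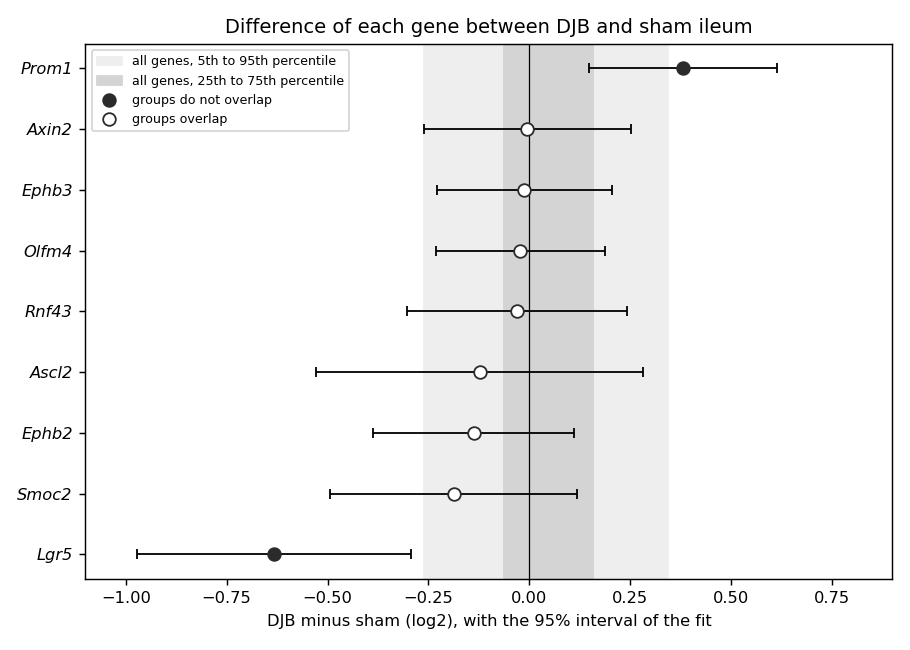
DJB minus sham on the log2 scale for each of the 9 genes (horizontal axis), with the 95% interval of the limma fit; filled points have groups that do not overlap, and the grey bands span the 25th to 75th and the 5th to 95th percentile of all 14506 genes. Prom1 at 0.38 and Lgr5 at -0.63 lie outside both bands, and the intervals of the other 7 genes include 0.

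Axin2 encodes a scaffold of the complex that destroys beta-catenin and is itself switched on by Wnt, which makes it a common read-out of the pathway. Its 300-base RefSeq promoter window (GRCr8, chr10:94398535-94398834, + strand) belongs to a transcript that starts 5406 bases inside the annotated gene, and is shown because it was the only window of the group to hold a TCF/LEF core motif. Capitals mark that motif, searched on both strands as CTTTGAT and CTTTGAA. The first window of Prom1 (GRCr8, chr14:71202395-71202694, + strand), the gene higher after DJB, is set beside it and has no such match.
Axin2: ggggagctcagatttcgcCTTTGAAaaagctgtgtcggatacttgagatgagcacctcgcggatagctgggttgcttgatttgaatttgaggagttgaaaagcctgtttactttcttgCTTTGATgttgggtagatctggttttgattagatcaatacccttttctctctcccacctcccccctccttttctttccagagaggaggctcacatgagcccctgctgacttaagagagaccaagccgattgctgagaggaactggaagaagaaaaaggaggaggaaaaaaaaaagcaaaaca
Prom1: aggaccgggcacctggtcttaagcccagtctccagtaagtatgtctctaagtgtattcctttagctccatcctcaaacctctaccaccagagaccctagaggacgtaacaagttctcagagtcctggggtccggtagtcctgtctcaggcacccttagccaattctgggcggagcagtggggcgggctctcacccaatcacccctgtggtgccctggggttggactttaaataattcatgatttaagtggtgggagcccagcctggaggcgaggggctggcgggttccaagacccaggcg

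RefSeq windows, 250 bases before to 50 after a transcript start, were found for 7 of the 9 genes (8 windows, with 2 for Prom1), and not for Lgr5 and Smoc2. In the Axin2 window CTTTGAA begins 232 bases and CTTTGAT 132 bases before the start. One form or the other was present in 8.73% of the 33469 rat windows of that length, beside 1 of these 7 genes. The E-box CAGCTG, a palindrome and a form bound by proteins of the Ascl2 class, was present in the Ephb3 window and in 15.1% of all windows. A match or its lack describes these letters only.

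Axin2 had 7.53, 7.75 and 7.48 on DJB 1 to 3 and 7.50, 7.54 and 7.73 on sham 1 to 3. DJB 2 and sham 3 were the high arrays, and the groups overlapped fully. The difference was -0.01 ± 0.11 (SE) with a 95% interval of -0.26 to 0.25, and its sign turned without DJB 1, DJB 3 or sham 3.

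Rnf43, the Wnt-induced ligase that removes Frizzled receptors, had 8.30, 8.00 and 7.93 on DJB 1 to 3 and 8.09, 8.02 and 8.22 on sham 1 to 3. The DJB arrays held both the highest and the lowest of the 6 values. The difference was -0.03 ± 0.12 (SE), with a 95% interval of -0.30 to 0.24 and a sign that turned without DJB 2, DJB 3 or sham 3.

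Ephb2 and Ephb3 encode receptor tyrosine kinases of the crypt that meet ephrin B ligands on villus-side cells. Ephb2 had 7.44, 7.26 and 7.46 on DJB 1 to 3 and 7.53, 7.38 and 7.67 on sham 1 to 3. DJB 2 was the lowest array, sham 3 the highest, and the difference of -0.14 ± 0.11 (SE) did not pass (limma adjusted p = 0.614). Ephb3 had 7.38, 7.28 and 7.43 on DJB 1 to 3 and 7.38, 7.30 and 7.45 on sham 1 to 3. The 2 groups covered nearly the same range, with a difference of -0.01 ± 0.10 (SE) and a 95% interval of -0.23 to 0.20.

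Whether genes differed from each other in their response was examined for 6 pairs, chosen with the values known, as the within-array difference of the pair in DJB minus that in sham. The Lgr5 difference less that of Olfm4 came to -0.61, and the Lgr5 difference less that of Ascl2 to -0.51. In each case all 3 DJB arrays lay on one side of all 3 sham arrays. Against Prom1 the gap was -1.01. Ephb2 less Ephb3 gave -0.13 with no overlap, and Rnf43 less Axin2 gave -0.03 with overlap. The exact permutation p was 0.1, the smallest possible, for 5 of the 6 pairs and 0.8 for Rnf43 less Axin2, or 0.12 and 0.8 after adjustment over the 6 pairs, so none passed. For Lgr5 with Prom1 and with Lgr4 (given below) the groups of the single genes stood apart in opposite directions. The value of 0.1 was thereby fixed in advance for these pairs. It was fixed for Lgr5 with Olfm4 as well. The 6 Olfm4 values, from 11.532 to 11.658, spanned less than the gap of 0.131 between the Lgr5 groups. The separation in these pairs therefore adds nothing to that of Lgr5 alone.

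Across the 9 genes the DJB rats had no common order. DJB 1 was the highest DJB array for 3 genes, DJB 2 for 2 and DJB 3 for 4, while over all genes DJB 1 was the highest for 57.6%. The sham rats did share an order. Sham 2 was the lowest sham array for 8 of the 9 genes, all but Axin2, whereas it was the lowest for 33.0% of all genes. Sham 3 was the highest sham array for 8 of the 9, all but Smoc2, against 38.5% of all genes. As a median over the 9 genes, sham 2 lay 0.14 below the sham mean (a deviation of -0.14) and sham 3 0.11 above it. The mean level of the 9 genes was 7.99 to 8.15 on the DJB arrays and 8.01 to 8.26 on the sham arrays. The sham order was not particular to these genes. By mean level, sham 2 was also lowest and sham 3 highest in several lists described below. These were the Wnt and R-spondin receptors (7.225 and 7.355), the beta-catenin core (8.389 and 8.501), other Wnt targets, BMP genes, and ephrins with other Eph receptors. Other lists had other orders, such as dividing cells, where sham 3 was lowest (8.18).

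**Figure D3:**
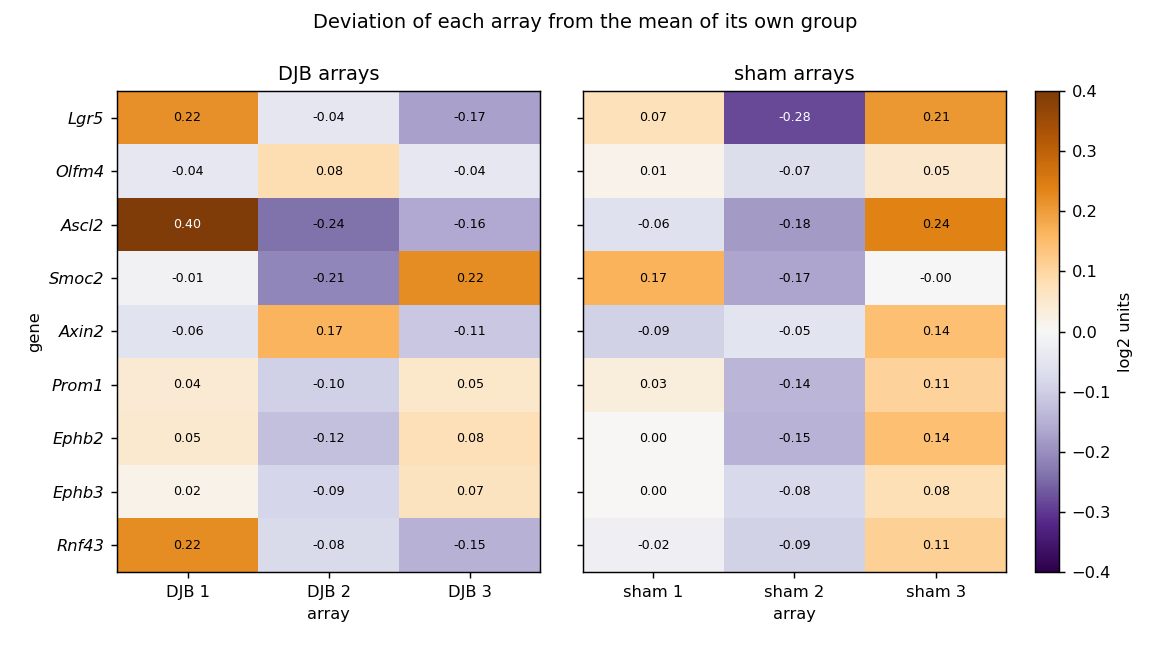
Deviation of each array from the mean of its own group in log2 units (colour and printed value), for the 9 genes in rows and the arrays in columns, DJB on the left and sham on the right. The sham 2 column is negative for every gene and the sham 3 column is positive for 8 of 9, while the DJB columns are mixed.

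With 1 array left out in turn, no gene of the 9 passed. The number of genes whose groups did not overlap was 2 with all arrays and between 2 and 4 with 1 left out, reaching 4 without DJB 1. Leaving out an array cannot make separated groups overlap, so this count could only stay or rise. The share of all genes with 1 array left out was not computed, so the count is not read as a result about the 9 genes. The median difference of the 9 genes was -0.14 without DJB 1, beside -0.03 with all arrays. That of all genes fell too, to 0.01 without DJB 1, beside 0.05 with all arrays.

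**Figure D4:**
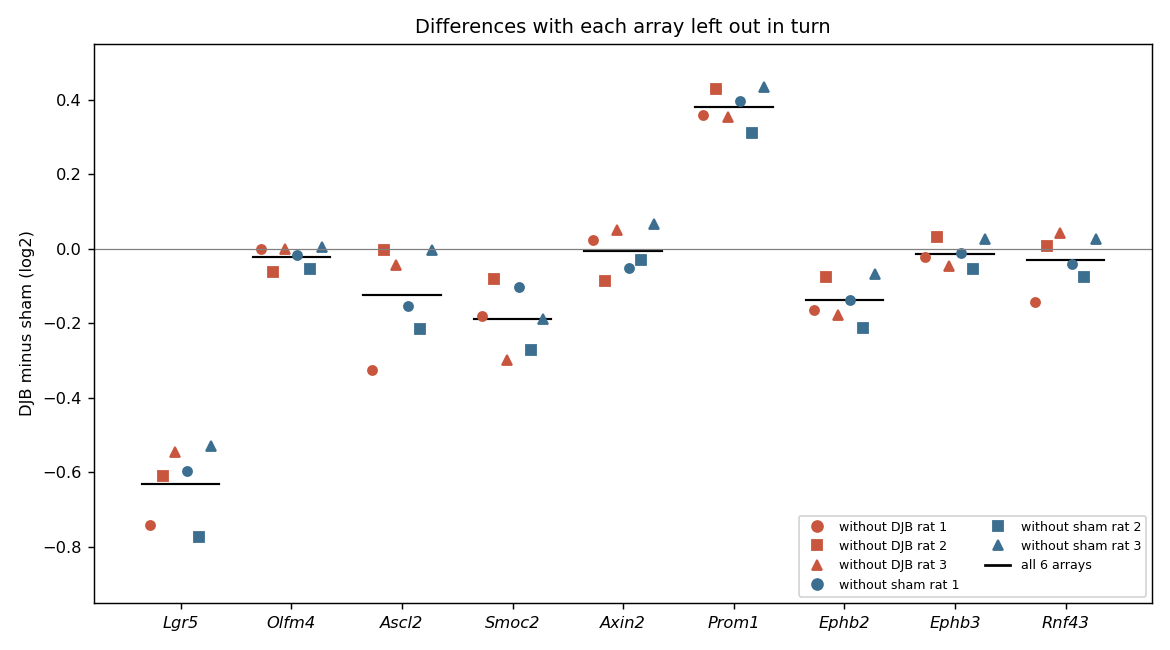
DJB minus sham on the log2 scale (vertical axis) for each of the 9 genes with 1 array left out, red for a DJB rat and blue for a sham rat with a symbol per rat number; the black line is the value with all 6 arrays. Lgr5 stays between -0.77 and -0.53 and Prom1 between 0.31 and 0.43, while the points of Olfm4, Axin2, Ephb3 and Rnf43 fall on both sides of 0.

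In the lists that follow, counts of lower genes stand beside 38.3% of all genes. Groups without overlap stand beside 6.56% of all genes with DJB below sham and 14.5% with DJB above sham. Wnt ligands and R-spondins act upstream of the Wnt targets. Of 16 measured, 0 passed limma (0 at an unadjusted p under 0.05), with a median difference of -0.02. Rspo3, an R-spondin made by the stroma, had 6.22, 6.08 and 6.09 on DJB 1 to 3, against 6.32, 6.27 and 6.47 on sham 1 to 3. Its groups did not overlap, and the difference of -0.22 ± 0.10 (SE) did not pass (adjusted p = 0.355). The other ligands of lowest p were Wnt5b at -0.23, Wnt9a at 0.17 and Wnt2 at 0.11, and the groups overlapped in each.

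Among 14 receptors of Wnt and R-spondin, 0 passed limma (1 at an unadjusted p under 0.05) and the median difference was 0.03. Lgr4, the broadly expressed R-spondin receptor related to Lgr5, had 9.84, 9.99 and 9.96 on DJB 1 to 3, against 9.56, 9.36 and 9.71 on sham 1 to 3. All DJB values were above all sham values, opposite in direction to Lgr5, and the difference of 0.39 ± 0.11 (SE) did not pass (adjusted p = 0.178). The gap between the Lgr5 and Lgr4 differences was -1.02, one of the 6 pairs above. The Frizzled genes Fzd9 (0.27), Fzd2 (0.32) and Fzd6 (0.17) had overlapping groups.

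The intracellular core of the pathway, with 14 genes, held 0 that passed limma (1 at an unadjusted p under 0.05) and had a median of -0.05. Csnk1a1, the kinase that primes beta-catenin for destruction, had 11.24, 11.32 and 11.36 on DJB 1 to 3, against 11.05, 11.05 and 11.07 on sham 1 to 3, and its difference of 0.25 ± 0.09 (SE) did not pass (adjusted p = 0.254). The scaffold gene Axin1 (-0.16), the beta-catenin cofactor gene Pygo2 (0.16) and the TCF gene Tcf7l1 (-0.14) had groups that overlapped. Ctnnb1, which encodes beta-catenin and was singled out after its values were seen, differed by 0.00 ± 0.09 (SE).

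Of 16 inhibitors, 0 passed limma and 0 had an unadjusted p under 0.05, with a median of 0.04. Those of lowest p were the secreted Wnt antagonist genes Sfrp5 (0.25), Sfrp4 (0.21) and Sostdc1 (0.13) and the corepressor gene Tle2 (-0.13). Of 9 further Wnt targets, 0 passed limma (1 at an unadjusted p under 0.05), with a median of 0.11. Ets2, a transcription factor gene, differed by 0.28 ± 0.11 (SE) and the cyclin gene Ccnd1 by 0.28 ± 0.14 (SE), both with all DJB arrays above all sham arrays. These were 2 of the 9 genes, beside 14.5% of all genes with DJB above sham. The protease gene Mmp7 (0.24) and the hyaluronan receptor gene Cd44 (0.16) had overlapping groups.

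Other crypt markers were mixed. Of 9 measured stem and progenitor genes beyond the roster, 5 were higher and 4 lower after DJB, 0 passed limma (1 at an unadjusted p under 0.05), and the median was 0.01. Groups without overlap were found in 2 of the 9, 1 in each direction (14.5% of all genes had DJB above sham and 6.56% below). Cd24, a surface protein of crypt base cells, differed by 0.23 ± 0.09 (SE) with DJB above sham. Bmi1, named after its values were seen, differed by -0.07 ± 0.09 (SE) with DJB below sham, and its groups were 0.011 apart. Clu, which marks regenerating crypts in the mouse, differed by -0.46 ± 0.25 (SE) with overlap, Msi1, an RNA-binding protein of progenitors, by -0.19, and Cdca7, a gene of dividing cells, by 0.13.

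Signals that balance Wnt in the crypt were measured as well. BMP signals, which hold back stem cells, were covered by 17 genes, 11 lower after DJB, with a median of -0.09. In that list 0 passed limma and 3 had an unadjusted p under 0.05, and 3 had all DJB below all sham (6.56% of all genes did). Id3 (-0.34) and Id2 (-0.20), both induced by BMP, and the ligand gene Bmp5 (-0.35) were these 3, and the ligand gene Bmp7 differed by -0.34 with overlap. Of 18 Notch genes, 0 passed limma (2 at an unadjusted p under 0.05) with a median of 0.05. Dll4, a Notch ligand, differed by 0.34 ± 0.10 (SE) and Rbpj, the DNA-binding factor of the pathway, by 0.23 ± 0.09 (SE). Both had all DJB above all sham, as 2 of the 18 genes, beside 14.5% of all genes. The ligand gene Dll3 (0.20) and the secretory lineage factor gene Atoh1 (-0.14) overlapped.

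The family of Ephb2 and Ephb3 was covered by 14 genes of ephrin A and B ligands and of other Eph receptors, of which 0 passed limma (1 at an unadjusted p under 0.05) with a median of 0.02. Efnb1, an ephrin B ligand, had 9.13, 9.08 and 9.08 on DJB 1 to 3, against 8.77, 8.72 and 9.05 on sham 1 to 3. The groups did not overlap, though sham 3 came within 0.025 of the nearest DJB array, and the difference of 0.25 ± 0.11 (SE) did not pass (adjusted p = 0.351). Efna4 (0.31) and Epha7 (-0.20) had overlapping groups, and Ephb6 (0.19) did not. In all, 2 of the 14 genes had DJB above sham without overlap, beside 14.5% of all genes.

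Dividing cells, which in bulk tissue may be of the crypt or of other parts, were the list of the 20 beside the roster in which the largest share of genes had groups without overlap. All 17 measured were higher after DJB, where 8956 of all 14506 genes were. Of the 17, 12 had no overlap of the groups (14.5% of all genes had all DJB above all sham), and the median was 0.30. Ccnb1, the mitotic cyclin, was the single gene of the list to pass, at a difference of 0.60 ± 0.11 (SE) and just under the threshold (limma adjusted p = 0.0497). It passed under 3 of 12 alternative settings and not with the rat number as a replicate block (adjusted p = 0.174), after centring (0.0573), after repeated quantile normalisation (0.0623) or without any 1 array (0.0973 to 0.19). Mcm5, a subunit of the replicative helicase, differed by 0.62 ± 0.12 (SE) (adjusted p = 0.0585, under the threshold in 2 of the 12 alternatives), the cyclin gene Ccnb2 by 0.32 and the mitotic kinase gene Aurkb by 0.33. The list's mean level was 8.40 to 8.74 on the DJB arrays and 8.18 to 8.27 on the sham arrays. The direction is that of Prom1 and opposite to that of Lgr5, and its part in either difference was not tested.

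Markers of other cells of the tissue had the following values beside the crypt genes, and their part in the results was not tested. Counts of genes without overlap stand beside 6.56% of all genes with DJB below sham and 14.5% with DJB above sham. Counts of lower genes stand beside 38.3% of all genes. Apart from Reg3g, 0 genes of these 10 cell type lists passed limma. No marker was at 0, since RMA values have no zero. Of 9 Paneth cell genes 4 were higher and 5 lower after DJB, and 1 passed. That was the antimicrobial lectin gene Reg3g, also made by enterocytes, which rose by 1.68 ± 0.14 (SE) (limma adjusted p = 0.00114). Of the 5 lower genes, Defa6, a defensin, differed by -0.68 ± 0.18 (SE) with all DJB below all sham. Defa24, another defensin, differed by -0.38, and Itln1, an intelectin, by -1.51 ± 0.54 (SE). Itln1 was 8.09, 8.17 and 7.88 on DJB 1 to 3, against 11.15 on sham 1 and 8.79 and 8.72 on the other sham arrays. The Paneth list's mean level was 9.38 to 9.67 on the DJB arrays and 9.46 to 10.59 on the sham arrays, where sham 1 was the high one. Mptx1 of that list, named after its values were seen, had 10.96 on sham 1 and 5.20 and 4.28 on the other sham arrays. It had 4.90, 4.16 and 4.14 on DJB 1 to 3, a difference of -2.41 ± 1.40 (SE) with overlap.

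All 6 tuft cell genes were lower after DJB, where 38.3% of all genes were, and 2 had groups without overlap (6.56% of all genes had all DJB below all sham). These 2 were the taste signalling gene Gnat3 (-0.59 ± 0.22, SE) and Alox5ap of leukotriene synthesis (-0.29), with Avil (-0.44) and Dclk1 (-0.24) overlapping. None passed limma (2 at an unadjusted p under 0.05), and the mean level was 6.16 to 6.32 on the DJB arrays and 6.20 to 6.70 on the sham arrays. As with the crypt genes, sham 2 was the low sham array. Of 6 goblet cell genes 4 were lower, led by Agr2 of mucin folding (-0.32) and the goblet factor gene Spdef (-0.25), both without overlap, with Spink4 (-0.19) and Tff3 (-0.07) overlapping. Their mean level was 11.21 to 11.25 on the DJB arrays and 11.33 to 11.38 on the sham arrays. Of 6 enteroendocrine genes 4 were higher, among them Neurog3 (0.18), Isl1 (0.18) and Chgb (0.22), while Pax6 (-0.19) was lower, and the groups overlapped in all 6, at a mean level of 5.99 to 6.21 on the DJB arrays and 5.80 to 6.23 on the sham arrays.

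Enterocyte genes were lower in 7 of 10, with the lipoprotein gene Apob (-0.37), the peptide transporter gene Slc15a1 (-0.30) and Fabp2 (-0.13) below sham on all DJB arrays and the keratin gene Krt20 (0.11) above. The mean level was 12.30 to 12.45 on the DJB arrays and 12.35 to 12.70 on the sham arrays. Of 8 fibroblast genes 4 were higher, the collagen genes Col1a1 (0.71 ± 0.21, SE), Col3a1 (0.52) and Col1a2 (0.52) and the proteoglycan gene Lum (0.56). The 4 lower, named after their values were seen, were Thy1 (-0.17), Pdgfra (-0.17), Dcn (-0.10) and Gli1 (-0.10). All groups of the 8 overlapped. The mean level of the 8 was 8.50 to 8.98 on the DJB arrays and 8.44 to 8.69 on the sham arrays. Smooth muscle genes were higher in 6 of 8, with Acta2 (0.25) without overlap and Actg2 (0.32), Cnn1 (0.36) and Tagln (0.21) overlapping, at 10.10 to 10.35 on the DJB arrays and 9.82 to 10.30 on the sham arrays, where sham 2 was again lowest.

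Neuron and glia genes were lower in 6 of 8 (Stmn2 -0.44, Prph -0.21, Uchl1 -0.19, S100b 0.15), vessel genes in 2 of 5 (Lyve1 0.19, Tie1 0.11, Kdr -0.06, Cdh5 0.04) and leukocyte genes in 2 of 6 (Csf1r 0.35, Cd68 0.27, Ms4a1 -0.73, Cd8a 0.23). Only the macrophage genes Csf1r and Cd68 among those named had groups without overlap, both with DJB above sham. The mean level of the neuron and glia list was 5.60 to 6.02 on the DJB arrays and 5.79 to 6.04 on the sham arrays. For vessels it was 6.96 to 7.42 on the DJB arrays and 7.10 to 7.14 on the sham arrays. For leukocytes it was 7.44 to 8.17 on the DJB arrays and 7.65 to 8.11 on the sham arrays.

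**Figure D5:**
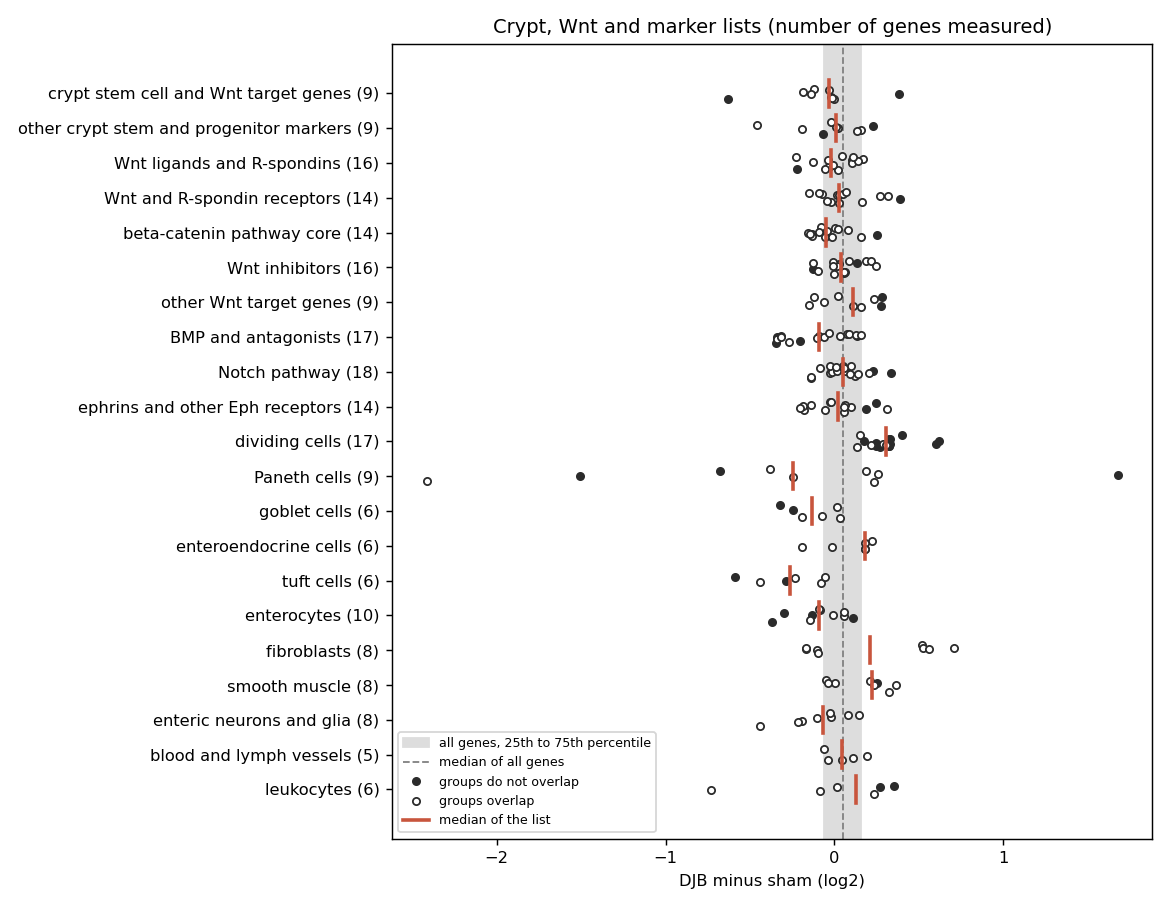
DJB minus sham on the log2 scale (horizontal axis) for every measured gene of the crypt, Wnt, niche and cell type lists, with the number of genes in brackets, filled points for groups that do not overlap, red bars for list medians and the band of the 25th to 75th percentile of all genes. The 9 crypt stem cell and Wnt target genes have a median of -0.03, and the dividing cell list lies wholly above 0 with a median of 0.30.

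The genes whose profile over the 6 arrays was nearest to that of Lgr5 were sought among 8832 genes at or above the median of all rows, by the root mean square difference after each gene was centred on its own mean. They were Guca2b, which encodes uroguanylin, at 0.10 log2 units, Rnf144b, a ubiquitin ligase gene, at 0.10, and Pbld1 at 0.11, where the median gene was at 0.39. Guca2b had 11.84, 11.52 and 11.30 on DJB 1 to 3 and 12.16, 12.09 and 12.37 on sham 1 to 3. Nearest to Prom1 were the sugar nucleotide transporter gene Slc35b4 at 0.02, Kctd9 at 0.04 and the cell cycle kinase gene Cdk4 at 0.04, with the median gene at 0.22. Cdk4 had 10.46, 10.26 and 10.42 on DJB 1 to 3 and 9.98, 9.90 and 10.04 on sham 1 to 3. These 6 genes were picked by their likeness, so their differences add no test.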

How the data were processed

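Ileal RNA of 3 DJB and 3 sham rats was measured on 1 Affymetrix array each, grouped by the labels' titles. The deposited table holds log2 values, 29214 rows by 6 arrays, made with RMA per the submitters' processing notes, which give no version; no build of the rows is named there. RMA corrects background, quantile normalises and summarises probes, which hides a shift common to all genes. Columns were matched by sample name and used as deposited.

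Rows with 1 symbol in the platform annotation (15310; 323 had several and 13581 none) gave 14506 genes, taking the highest mean where a gene had several rows (527 genes). Symbols of 15303 of these rows were found in RefSeq (GRCr8), the source of the promoter windows. Limma 3.58.1 in R 4.3.3 (lmFit, eBayes, no covariate, two-sided) was adjusted by Benjamini-Hochberg over all genes and tested on simulated data. Python 3.11.15 with matplotlib 3.10.9 made the figures.

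The roster and the 20 other lists (246 genes, 215 measured, Mmp7 in more than 1) were chosen with earlier results of these data known. Named are all roster genes, of each other list those that passed and up to 4 of lowest p, and the 3 genes nearest in profile to Lgr5 and to Prom1, leaving out accession-only names. A few further genes are marked as named after their values were seen. Same-numbered rats did not deviate together (correlations of their deviations from the group means, across genes, 0.005, -0.121 and -0.149), so the number was no block in the fit. Alternatives were that block, repeated quantile normalisation, centring on array medians, leaving out dim rows, an intensity trend with robust moderation, the mean of a gene's rows, and leaving out each array.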

Additional observations from a re-analysis of the deposited data

How the results depend on the processing

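None of the 9 genes passed with all 6 arrays, and under the 12 alternatives the one call was that of Lgr5 with an intensity trend and robust moderation (1 gene, adjusted p = 0.0483), where the number of all genes called was 313. That number was 112 in the reported fit, 225 with dim rows left out, 50 with the replicate block, and 33 to 108 with 1 array left out (lowest without sham 3, and 37 without sham 2, 43 without DJB 2, 60 without DJB 3 and 61 without sham 1). The replicate block gave adjusted p = 0.202 for Lgr5 and 0.281 for Prom1 and called 0 of the 9 genes, and no label says that the numbers pair the rats. With 1 array left out 0 of the 9 genes passed, and their median difference ranged from -0.142 (without DJB 1) to 0.005. The median of all genes was 0.01 without DJB 1, beside 0.05 in the reported fit. Groups without overlap were found in 2 to 4 genes with 1 array left out (4 without DJB 1). Leaving out an array cannot lower that count, and the share of all genes beside it was not computed. Signs turned with 1 array left out for Axin2 (-0.087 to 0.067), Ephb3 (-0.053 to 0.031), Olfm4 (-0.063 to 0.005) and Rnf43 (-0.142 to 0.044), and for no gene of the 9 under another scaling, which moved the median of all genes to 0.013 or 0.02. In the other lists 2 genes passed, Ccnb1 and Reg3g, and 3 with dim rows left out or with the trend and robust moderation, where Mcm5 passed too. The count was 1 after centring, after repeated quantile normalisation, with the replicate block or with any 1 array left out, each time Reg3g, with Ccnb1 lost. The overlap counts and the values of the other lists' genes were added after seeing the data. The causes were not tested.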
